A study of Mus musculus with 6 samples.

Results

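The SR splicing factor family was examined as the 10 genes *Srsf1*, *Srsf2*, *Srsf3*, *Srsf4*, *Srsf5*, *Srsf6*, *Srsf7*, *Srsf9*, *Srsf10* and *Srsf11*, taken by gene symbol from the 54532 genes of the deposited expression table. All 10 were found, and all 10 passed the filter on low values that left 17180 genes for testing. RNA was sequenced from whole ovaries of C57BL/6 mice at 16.5 days post-coitus (dpc), in 3 control (Ctrl) and 3 *Srsf1* conditional knockout (cKO) libraries. In cKO mice, a *Stra8-GFPCre* transgene, active in germ cells from the entry into meiosis, was crossed with an *Srsf1* Fl/Fl allele in which exons 2, 3 and 4 lie between loxP sites, so the somatic cells of the ovary kept the gene. The sample labels give the Ctrl mice as wild type, and do not say which floxed or Cre alleles, if any, they carried. The comparison asked whether the other SR genes were higher in cKO ovaries, where *Srsf1* had been deleted in part of the cells.

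SR proteins carry 1 or more RNA recognition motifs (RRMs), which bind short exonic sequences, and a domain rich in arginine-serine dipeptides, which is phosphorylated and recruits the spliceosome to nearby splice sites. They act in constitutive and alternative splicing, and several also take part in mRNA export and translation. Many SR genes are known to limit their own output through alternative splicing to transcripts with early stop codons that are degraded by nonsense-mediated decay. SRSF1 is the prototype of the family, and a conditional deletion is used because complete loss of the gene is lethal in mice.

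The family members closest to SRSF1 have a second RRM of a divergent kind, marked by a short stretch that contacts RNA. A search of the coding sequences of the GENCODE M21 transcripts (GRCm38) found this stretch in *Srsf1*, *Srsf4*, *Srsf5*, *Srsf6* and *Srsf9*, and in no other member. Its 21 coding bases are shown in capitals with 6 bases on either side, because they set apart the paralogs that share both RRMs with *Srsf1*:
Srsf1: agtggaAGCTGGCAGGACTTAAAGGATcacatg
Srsf4: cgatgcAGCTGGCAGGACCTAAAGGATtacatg
Srsf5: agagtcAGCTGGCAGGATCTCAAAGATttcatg
Srsf6: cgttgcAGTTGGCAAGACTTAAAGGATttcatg
Srsf9: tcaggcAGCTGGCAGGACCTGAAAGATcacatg
The *Srsf1* stretch lies in coding exon 3, within the deleted region, at chr11:88049054-88049086 on the plus strand, and that of *Srsf9* lies at chr5:115332128-115332160 on the plus strand. In *Srsf4*, *Srsf5* and *Srsf6* the printed bases span an intron. Of the 21 core bases, 20 in *Srsf4*, 19 in *Srsf6*, 18 in *Srsf9* and 17 in *Srsf5* were the same as in *Srsf1*.

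By identity over locally aligned residues, *Srsf9* stood nearest to *Srsf1*. A local alignment of the translated coding sequences gave 74.8% identity over 214 residues between *Srsf1* and *Srsf9*, against 37.6% to 53.9% between *Srsf1* and the other 8 members. The aligned stretches of those 8 differed in length, from 140 residues for *Srsf10* to 221 for *Srsf4*. *Srsf4* and *Srsf6* were 71.3% identical, and *Srsf3* and *Srsf7* were 69.0% identical. The *Srsf9* protein had the smallest share of residues in arginine-serine or serine-arginine dipeptides, at 6.76%, compared with 16.1% in *Srsf1* and 31.1% in *Srsf7*. *Srsf7* alone carried a zinc knuckle, an additional RNA-binding fold, whose coding bases are in capitals here, at chr17:80205285-80205338 on the minus strand:
Srsf7: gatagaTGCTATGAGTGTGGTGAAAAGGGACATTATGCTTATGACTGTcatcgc

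Gene coordinates in the table are those of GRCm38. *Srsf1* (ENSMUSG00000018379) lies at chr11:88047373-88053755 on the plus strand, and its protein-coding transcript Srsf1-205 has 4 exons. Exons 2, 3 and 4 of that transcript hold 4702 of the 5710 exonic bases over which *Srsf1* reads were counted, or 82.3%, which assumes that the exon numbering of the floxed allele follows this transcript. Counted bases from the start of exon 2 on, those of other transcripts included, number 5050, or 88.4%. The remaining 660 bases, 11.6% of the gene model, lie before exon 2. An antisense gene, *Gm11508*, shares 98 bases with *Srsf1* and was at 0.110 FPKM on average. The deposited value sums reads over the gene and does not separate deleted from remaining exons. Exon 3, at chr11:88049043-88049215, is shown with the second-RRM stretch in capitals, which of the paralogs only *Srsf4*, *Srsf5*, *Srsf6* and *Srsf9* also carry:
Srsf1 exon 3: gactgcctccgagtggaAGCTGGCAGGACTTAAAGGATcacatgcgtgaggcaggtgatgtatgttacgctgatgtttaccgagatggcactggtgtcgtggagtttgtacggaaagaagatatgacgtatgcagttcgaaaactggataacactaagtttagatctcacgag

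**Figure D1:**
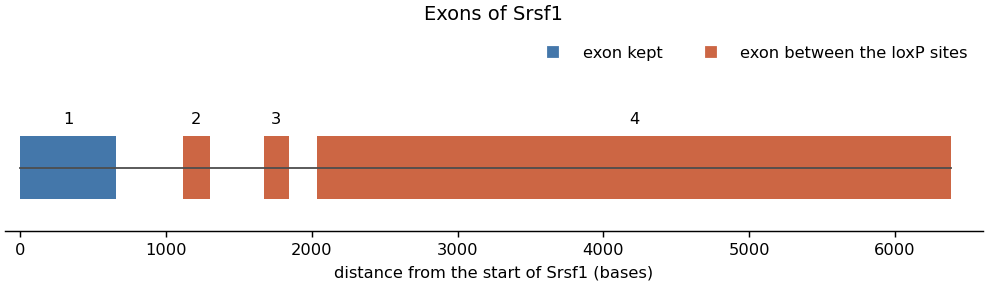
Exons of *Srsf1* drawn to scale along the gene, with the distance from the gene start in bases on the x axis; exon numbers follow transcript Srsf1-205. The 3 exons between the loxP sites, under that numbering, hold 4702 of the 5710 counted bases.

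Reads on genes numbered between 15548757 and 16756795 in Ctrl and between 14212164 and 16784241 in cKO libraries. The table gives FPKM, reads scaled by gene length and by a library size. That size, recovered from the values, was not the total of reads on genes. It was 0.965, 1.03 and 1.04 of that total in Ctrl 1, 2 and 3. In cKO 1, 2 and 3 it was 0.992, 1.000 and 0.999 of the total. For members other than *Srsf7* the length is that of all annotated exons together, from 1653 bases in *Srsf9* to 8446 in *Srsf11*. For *Srsf7* it was 2279 bases, against 3550 in GENCODE M21. Orders, ratios, sums and shares between genes depend on these lengths. Markers of pregranulosa cells, stroma, endothelium and germ cells were present in all 6 libraries, and the 8 retinal markers were all under the minimum level, although the protocol text of the labels names retina. The RNA level of germ cell markers differed between libraries of 1 group. The summed FPKM of 10 such markers ran at 109, 213 and 388 across Ctrl 1, 2 and 3. Across cKO 1, 2 and 3 it was 466, 186 and 543. *Ddx4*, a germ cell RNA helicase, reached 13.1, 31.5 and 49.0 FPKM across the Ctrl libraries, against 51.9, 20.2 and 55.1 across the cKO ones. Of the 10 markers, 2 were higher in cKO at an unadjusted p below 0.05, *Dazl* and *Dppa3*, and 8 did not pass. Of all genes tested, 2.68% passed as higher. The log2 fold change was above 0 for 8 of the markers and below 0 for 2. The *Dazl* groups overlapped, and *Dppa3* was low, at 0.138 to 1.54 FPKM in Ctrl. The summed FPKM of 8 red blood cell genes ranged from 4891 to 23345 among Ctrl and from 1604 to 10451 among cKO libraries, with 0 of 8 past that limit. The part of these differences in the values of the SR genes was not tested.

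In Ctrl ovaries, *Srsf5* had the highest FPKM of the members and *Srsf4* the lowest. *Srsf5* averaged 175 ± 3.43 FPKM (SD, n = 3), followed by *Srsf6* at 114 ± 1.38, *Srsf2* at 109 ± 2.63, *Srsf7* at 105 ± 6.20, *Srsf1* at 71.2 ± 8.61, *Srsf3* at 52.7 ± 5.63, *Srsf9* at 49.5 ± 4.88, *Srsf11* at 44.5 ± 0.345, *Srsf10* at 32.7 ± 2.88 and *Srsf4* at 9.89 ± 0.774. The neighbours *Srsf2* and *Srsf7* overlapped between libraries, as did *Srsf3* and *Srsf9*, and all other neighbours in this order were separated in the 3 libraries. *Srsf1* ranked 5 in each Ctrl library. It ranked 9, 8 and 9 in cKO 1, 2 and 3, where only *Srsf4* was lower in every library and the values of *Srsf1* and *Srsf10* overlapped. The cKO order of means was *Srsf5*, *Srsf7*, *Srsf6*, *Srsf2*, *Srsf9*, *Srsf3*, *Srsf11*, *Srsf10*, *Srsf1* and *Srsf4*. In it, the libraries were apart between *Srsf5* and *Srsf7*, between *Srsf2* and *Srsf9* and between *Srsf1* and *Srsf4*, and all other neighbours overlapped.

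**Figure D2:**
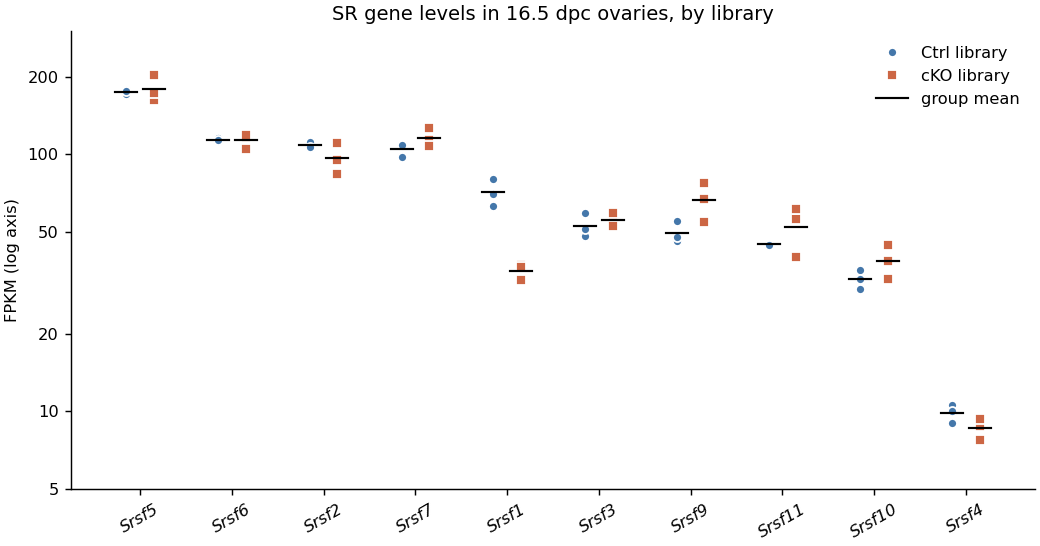
FPKM of the 10 SR genes (log axis) in each of the 3 Ctrl (circles) and 3 cKO (squares) libraries, ordered by the Ctrl mean, with bars at group means. *Srsf1* is the only gene whose groups are apart, at 63.1 to 80.2 FPKM in Ctrl and 32.4 to 37.0 in cKO.

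*Srsf1* was the only member lower in every cKO library than in every Ctrl library. It was at 80.2, 70.1 and 63.1 FPKM in Ctrl 1, 2 and 3 and at 32.4, 37.0 and 36.4 FPKM in cKO 1, 2 and 3, from 2861 to 6871 reads per library. The 3 Ctrl values were all above the 3 cKO values, and in both groups the spread was small beside the distance between them. The mean fell from 71.2 ± 8.61 to 35.3 ± 2.49 FPKM (SD, n = 3), a log2 fold change of -0.99 (SE 0.13) on the log2(FPKM + 1) scale. This is a change of -49.6%, with a 95% interval from -59.4% to -37.4%. The unadjusted p was 0.000158 with limma, and the adjusted p was 0.497. The exact permutation test gave p = 0.1, the smallest that 3 libraries against 3 allow. Within Ctrl, *Srsf1* was highest in the library with the lowest summed germ cell markers (80.2 FPKM at a sum of 109) and lowest in that with the highest (63.1 FPKM at 388), and within cKO the levels of 32.4, 37.0 and 36.4 FPKM stood beside sums of 466, 186 and 543. The Ctrl order of *Srsf1* was also that of the summed red blood cell genes, at 23345, 7941 and 4891 FPKM. It was that of 8 cell division genes too, at 435, 328 and 266 FPKM. Within cKO, the red blood cell sums of 1604, 10451 and 9944 FPKM again had the order of *Srsf1*. The cell division sums of 345, 240 and 337 FPKM ran in the reverse order there. Summed pregranulosa cell markers had the order of *Srsf1* in both groups, at 742, 690 and 609 FPKM in Ctrl and 587, 857 and 679 in cKO. So did summed macrophage markers, at 40.6, 35.2 and 34.1 FPKM in Ctrl and 25.0, 43.3 and 27.6 in cKO. The sums of stroma, endothelium and mesonephros markers did not keep that order in both groups. The part of any of these in the *Srsf1* values was not tested. In RNA of whole ovaries, fewer cells of a type and less RNA per cell cannot be told apart.

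Of the 10 members, 2 passed the study's limit of an unadjusted p below 0.05 in limma, *Srsf1* downward and *Srsf9* upward, where 4.43% of all genes tested passed, 2.68% as higher and 1.75% as lower in cKO. None passed after adjustment over all 17180 genes, nor did any other gene, and the adjusted p of the 9 paralogs was between 0.978 and 0.999 in limma. At the unadjusted limit, 460 genes were higher and 301 lower, and limma's voom on the recovered reads, with 443 higher and 281 lower, likewise left none after adjustment. Without Ctrl 1, 4 genes passed adjustment in limma, and no member was among them. *Srsf1* alone of the members had groups that did not overlap, as did 8.68% of all genes tested. Among the 9 paralogs, 1 passed and 8 did not. Their median log2 fold change was 0.08, with 6 of 9 above 0, against a median of -0.01 over all genes tested, of which 47.9% were above 0.

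*Srsf9*, the paralog nearest to *Srsf1* in sequence and a regulator of alternative splice site choice, was the only paralog past that limit. It lies at chr5:115327177-115333080 on the plus strand (ENSMUSG00000029538). Its level was 45.8, 47.6 and 55.0 FPKM in Ctrl 1, 2 and 3 and 54.3, 66.9 and 77.5 FPKM in cKO 1, 2 and 3, from 1135 to 1856 reads per library. All 3 cKO libraries were above the Ctrl mean, but the groups overlapped, since cKO 1 was just below Ctrl 3. *Srsf9* rose from 49.5 ± 4.88 to 66.3 ± 11.6 FPKM (SD, n = 3), with a log2 fold change of 0.40 (SE 0.16) and a limma p of 0.0414 that was 0.978 after adjustment. The change of 32.3% had a 95% interval from 1.46% to 72.6%. An exact permutation test of the same values gave p = 0.2. The call was lost when any one of Ctrl 1, Ctrl 2, cKO 2 or cKO 3 was left out, at log2 fold changes of 0.29 to 0.39, and was kept without Ctrl 3 or cKO 1.

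The other 3 paralogs with the divergent second RRM did not pass. *Srsf4* lies at chr4:131873617-131901706 (plus strand, ENSMUSG00000028911), *Srsf5* at chr12:80945504-80950507 (plus strand, ENSMUSG00000021134) and *Srsf6* at chr2:162931528-162937121 (plus strand, ENSMUSG00000016921). *Srsf4*, whose protein has the most arginine-serine and serine-arginine dipeptides of the family, 106, was at 10.6, 9.05 and 10.05 FPKM in Ctrl and at 8.81, 9.35 and 7.77 in cKO, with a log2 fold change of -0.18 (SE 0.12, unadjusted p = 0.197 in limma, as for the members that follow). The groups overlapped, with cKO 2 above Ctrl 2. *Gm12992*, a processed transcript at 0.233 FPKM, shares 1532 bases with *Srsf4* on the opposite strand, and *A930004J17Rik* overlaps it on the same strand with 0 exonic bases shared. *Srsf5* was at 171, 177 and 177 FPKM in Ctrl and at 203, 163 and 173 in cKO, with a log2 fold change of 0.03 (SE 0.13, unadjusted p = 0.823). Here cKO 1 lay above and cKO 2 below all Ctrl libraries, and the sign turned to a log2 fold change of -0.06 without cKO 1. *Srsf6* was at 113, 115 and 114 FPKM in Ctrl and at 117, 105 and 119 in cKO, with a log2 fold change of -0.01 (SE 0.11, unadjusted p = 0.95) and a 95% interval from -0.27 to 0.26. The cKO 2 library was the only one below the Ctrl values.

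The members with 1 canonical RRM were *Srsf2* at chr11:116849901-116853094 (minus strand, ENSMUSG00000034120), *Srsf3* at chr17:29032628-29043373 (plus strand, ENSMUSG00000071172) and *Srsf7* at chr17:80200089-80207305 (minus strand, ENSMUSG00000024097). *Srsf2*, which also acts in transcript elongation, was at 108, 112 and 107 FPKM in Ctrl and at 95.1, 83.4 and 110 in cKO, with a log2 fold change of -0.18 (SE 0.14, unadjusted p = 0.221). The cKO 1 and cKO 2 libraries lay below all Ctrl libraries and cKO 3 lay within them. *Srsf3*, the smallest SR protein and an adaptor for mRNA export, was at 58.9, 47.8 and 51.4 FPKM in Ctrl and at 55.5, 52.4 and 58.9 in cKO, with a log2 fold change of 0.08 (SE 0.12, unadjusted p = 0.538). *Srsf7*, another export adaptor, was at 108, 109 and 97.6 FPKM in Ctrl and at 114, 107 and 126 in cKO, with a log2 fold change of 0.14 (SE 0.12, unadjusted p = 0.287). For *Srsf3* and *Srsf7* the groups overlapped, and for *Srsf7* both cKO 1 and cKO 3 lay above all Ctrl libraries. *Srsf2* reads include a possible share from *Mettl23* and *Mfsd11*, at 8.97 and 6.79 FPKM, whose exons on the opposite strand cover 460 and 288 of its bases, since no source used here gives the use of strand in counting.

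The SR-like members *Srsf10* and *Srsf11* lie at chr4:135855747-135869908 (plus strand, ENSMUSG00000028676) and chr3:158010473-158036639 (minus strand, ENSMUSG00000055436), and neither passed. *Srsf10*, a splicing repressor when dephosphorylated, was at 35.6, 29.8 and 32.8 FPKM in Ctrl and at 38.5, 32.7 and 44.3 in cKO, with a log2 fold change of 0.22 (SE 0.15, unadjusted p = 0.174). Its cKO 2 library lay within the Ctrl values and the other 2 cKO libraries above them. *Srsf11* was at 44.6, 44.9 and 44.2 FPKM in Ctrl and at 55.9, 39.8 and 61.0 in cKO, with a log2 fold change of 0.20 (SE 0.17, unadjusted p = 0.279). The coefficient of variation of *Srsf11* was 0.774% in Ctrl and 21.2% in cKO, and cKO 2 was below all 3 Ctrl libraries while cKO 1 and cKO 3 were above them. Without cKO 2 both genes passed the unadjusted limit, with log2 fold changes of 0.33 for *Srsf10* (unadjusted p = 0.0404) and 0.38 for *Srsf11* (unadjusted p = 0.00871), while *Srsf9* no longer did (0.39, unadjusted p = 0.0792). In the same fit 1461 genes in all were higher and 1039 lower at that limit, against 460 and 301 with the 6 libraries.

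**Figure D3:**
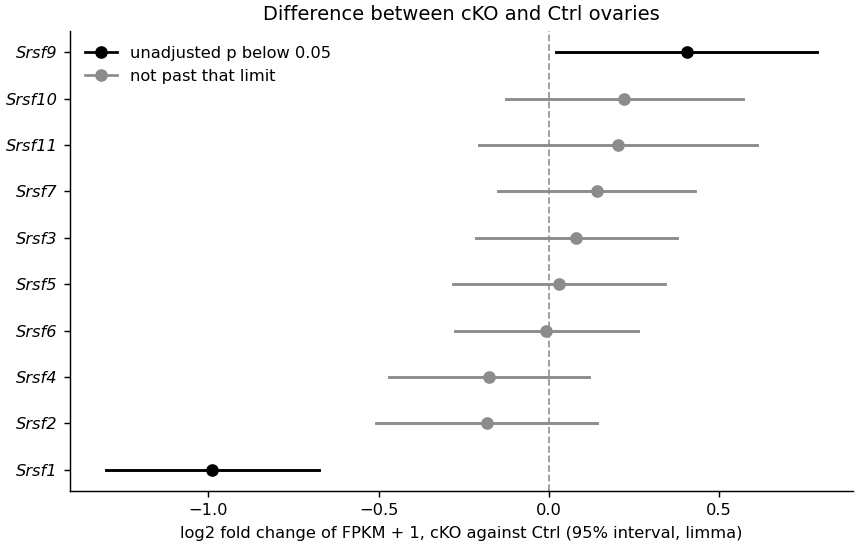
Log2 fold change of FPKM + 1 in cKO against Ctrl for the 10 SR genes, with 95% intervals from limma (3 libraries per group); black marks an unadjusted p below 0.05. The interval of *Srsf9* starts at 0.02 and those of the other 8 paralogs include 0.

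The cKO 2 library set the low end of the group for most paralogs. It was the lowest cKO library for 7 of the 9 paralogs and lay below every Ctrl library for 4 of them. The cKO 3 library was the highest cKO library for 7 of 9 and lay above every Ctrl library for 6. In 8 of the 9 paralogs the coefficient of variation was larger in cKO than in Ctrl. These counts were made for the paralogs alone, with no share over all genes tested beside them. They are not shown to be particular to the family. Genes of the same library are not independent, and leaving out cKO 2 also moved the counts over all genes, as given above. The cKO 2 library also had the smallest summed level of germ cell markers of its group, 186 FPKM against 466 and 543 in cKO 1 and cKO 3, and the largest of pregranulosa cell markers, 857 FPKM against 587 and 679. Its red blood cell sum, 10451 FPKM, was near that of cKO 3, 9944, and above that of cKO 1, 1604. The part of these in the spread of the paralogs was not tested.

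The summed level of the 9 members other than *Srsf1* was not shown to differ between groups. Ctrl 1, 2 and 3 had sums of 694, 692 and 688 FPKM, and cKO 1, 2 and 3 had sums of 741, 659 and 777 FPKM. Of the cKO libraries, cKO 1 and cKO 3 lay above and cKO 2 below all Ctrl libraries. The mean was 692 ± 3.22 in Ctrl and 726 ± 60.5 in cKO (SD, n = 3), a difference of 34.5 FPKM, with p = 0.4 in an exact two-sided permutation test. The difference was 8.84 FPKM without cKO 3 and 67.9 FPKM without cKO 2, the extremes when 1 library at a time was left out. For scale, *Srsf1* fell by 35.9 FPKM, and *Srsf9* accounted for 16.8 FPKM of the summed difference. The SD of the sum in cKO, 60.5 FPKM, was larger than the difference itself.

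With *Srsf1* included, the summed level of the family averaged 763 ± 11.7 FPKM among Ctrl and 761 ± 59.7 among cKO libraries (SD, n = 3; exact permutation test, p = 0.9). The makeup of this sum differed. *Srsf1* made up 10.4%, 9.20% and 8.40% of the sum of Ctrl 1, 2 and 3, and 4.19%, 5.32% and 4.47% of that of cKO 1, 2 and 3, with no overlap of groups (exact permutation test, p = 0.1, the smallest possible). The ratio of *Srsf9* to *Srsf1* stood at 0.571, 0.679 and 0.871 among Ctrl and at 1.68, 1.81 and 2.13 among cKO libraries. *Srsf9*, *Srsf3* and *Srsf11* were each below *Srsf1* in every Ctrl library and above it in every cKO library, and the ratios of all 9 paralogs to *Srsf1* had no overlap of groups (exact permutation test, p = 0.1 each), a set of values that share the lower *Srsf1*. As a share of the sum, *Srsf9* overlapped between groups, at 6.49% in Ctrl and 8.72% in cKO (exact permutation test, p = 0.2). The shares of *Srsf2* (14.3% and 12.6%), *Srsf7* (13.7% and 15.2%) and *Srsf10* (4.29% and 5.04%) did not (exact permutation test, p = 0.1 each, the smallest possible). In FPKM the groups of each of these genes overlapped (exact permutation test, p = 0.3 each). Shares of the same sum are not independent, and the lower *Srsf1* enters all of them. By group of members, the sum of *Srsf4*, *Srsf5*, *Srsf6* and *Srsf9* averaged 348 FPKM among Ctrl and 368 FPKM among cKO libraries (exact permutation test, p = 0.3). That of *Srsf2*, *Srsf3* and *Srsf7* was 266 and 268 FPKM (exact permutation test, p = 1), and that of *Srsf10* and *Srsf11* was 77.3 and 90.7 FPKM (exact permutation test, p = 0.4).

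**Figure D4:**
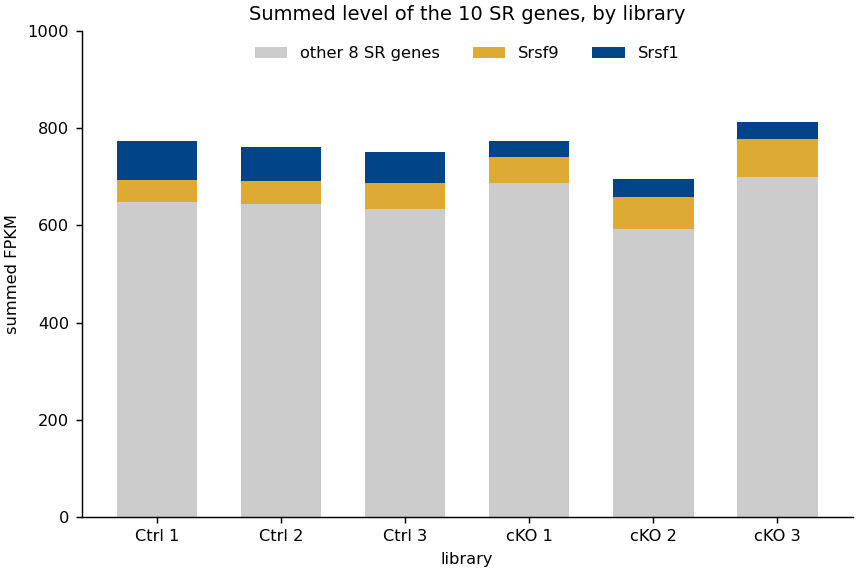
Summed FPKM of the 10 SR genes in each library, stacked as *Srsf1*, *Srsf9* and the other 8 genes. The *Srsf1* part is 63.1 to 80.2 FPKM in Ctrl and 32.4 to 37.0 in cKO, and the whole bars run from 751 to 775 in Ctrl and from 696 to 814 in cKO.

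Profiles over the 6 libraries were also compared, as the root mean square difference of centred log2(FPKM + 1) values. Among the members, *Srsf4* was nearest to *Srsf1*, at 0.427, and *Srsf9* was farthest from it, at 0.725. These distances include the differences between groups already given for each member. The closest pair was *Srsf5* and *Srsf6*, at 0.0787. *Srsf9* had *Srsf10* as its nearest member, at 0.211. Over all genes tested, those nearest to *Srsf1* were *Mir7647* at 0.0913, *Tbx6* at 0.146, *Pkmyt1* at 0.160, *Spaca9* at 0.179 and *Ccdc88c* at 0.187. *Mir7647* rested on 1 read in each Ctrl library and was listed at 0 in cKO, and *Tbx6* had 8 to 62 reads per library. *Pkmyt1*, a kinase that inhibits CDK1, was at 10.3, 8.27 and 8.22 FPKM in Ctrl and at 3.98, 5.25 and 5.82 in cKO. Its log2 fold change was -0.73, and its groups did not overlap. Both follow from its choice by a profile near that of *Srsf1* and are not separate results.

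The annotation holds transcripts of the kinds through which SR genes are known to be self-limited. In GENCODE M21, 9 of the 10 members had at least 1 transcript marked for nonsense-mediated decay, against 27.5% of the 13459 protein-coding genes tested, and 8 had a transcript with a retained intron, against 56.4%. *Srsf10* had neither. FPKM per gene sums over these transcripts, so a shift between productive and decayed forms was not analysed here.

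Other genes of the splicing machinery were read against the 4.43% of all genes tested that passed, a share at which lists of this size hold few calls. Of 22 SR-related proteins, which include the RS-domain coactivators *Srrm1* and *Srrm2* and the U2AF subunits, 21 were tested and 0 passed the unadjusted limit, with a median log2 fold change of 0.01 and a range from -0.26 to 0.22. *Srsf12*, an SR-like gene close to *Srsf10* in sequence, was at 9.07, 7.93 and 8.73 FPKM in Ctrl and at 7.19, 8.73 and 8.23 in cKO (log2 fold change -0.08, unadjusted p = 0.522). Of the kinases that phosphorylate SR proteins and their nuclear importer, transportin 3, 0 of 8 tested passed, with a median of -0.02. Of 10 factors of nonsense-mediated decay, 0 passed, with a median of 0.03. Each of these lists also had 0 calls with voom. Among 9 genes of the A and H groups of hnRNPs and of PTB, which often oppose SR proteins at splice sites, 1 passed as lower and 8 did not, with a median of 0.02. This was *Hnrnph2*, at 21.1, 22.8 and 19.7 FPKM in Ctrl and 16.1, 18.3 and 16.7 in cKO. Its groups did not overlap, and the log2 fold change was -0.30 (SE 0.11, unadjusted p = 0.0351, not past adjustment). The call was lost with the replicate number as a block and without Ctrl 2, cKO 1 or cKO 3.

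**Figure D5:**
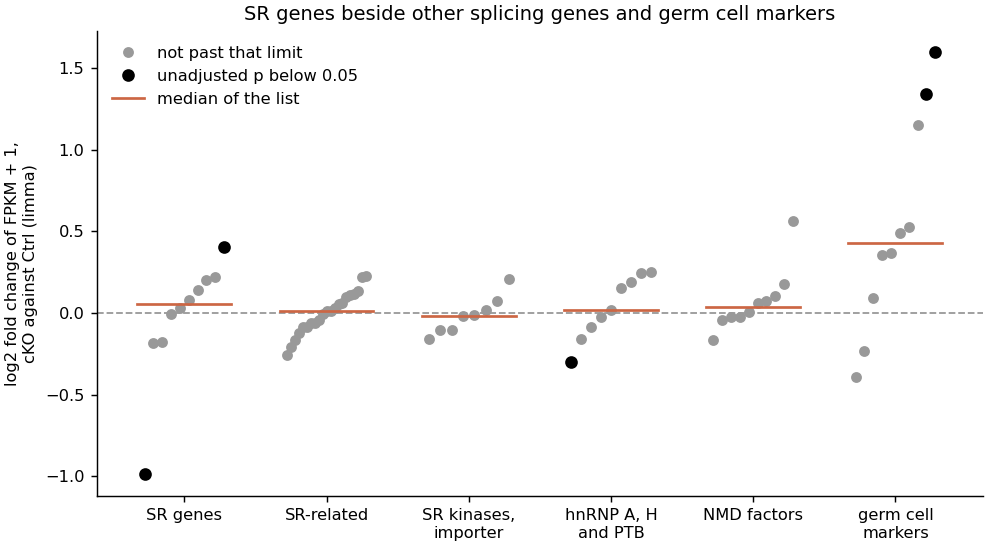
Log2 fold change of FPKM + 1 in cKO against Ctrl for each tested gene of the SR family and of 5 other lists (points), with list medians (bars); black marks an unadjusted p below 0.05 in limma. Among the splicing lists the black points are *Srsf1*, *Srsf9* and *Hnrnph2*, and in the germ cell list they are *Dazl* and *Dppa3*.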

How the data were processed

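RNA of whole 16.5 dpc ovaries was compared between 3 Ctrl and 3 cKO libraries, grouped and numbered by the sample labels. The authors sequenced poly-A RNA in paired ends, aligned the reads to GRCm38 (mm10) with HISAT2 2.0.5, counted them on genes with featureCounts, and deposited the result as FPKM. No source used here gives their annotation release. Coordinates of 98.3% of 54409 matched genes were those of GENCODE M21, which was used for exons, transcripts and sequences. All FPKM values came out as whole reads within 0.05 read when gene length and depth were divided out.

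Genes that averaged 0.5 FPKM or more were fitted with limma 3.58.1 (R 4.3.3) on log2(FPKM + 1) with an intensity trend, two-sided, and p-values were adjusted by Benjamini-Hochberg over 17180 genes. Fold changes on this scale understate changes of low genes. Sums and single genes were compared with the exact permutation test. The methods call the 3 libraries of a group biological replicates and do not say how many animals each held. Python 3.11.15 was used for tables and figures.

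Named genes are the 10 members, called genes of the lists, genes overlapping a member and the 5 profiles nearest to *Srsf1*. Members and lists were chosen with earlier results of these data known. *Ddx4*, *Srsf12*, *Srrm1*, *Srrm2*, transportin 3 (*Tnpo3*) and *Smg1* were named outside this rule, after their values were seen. Alternatives were pseudocounts of 0.1 and 0.5, no minimum and a minimum of 1 FPKM, median-ratio and quantile scaling, voom on recovered reads, no trend, a replicate block, leaving out *Srsf5* from the sums and leaving out each library. Replicate numbers did not pair the libraries.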

Additional observations from a re-analysis of the deposited data

How the results depend on the processing

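*Srsf1* kept its direction and its call in all 15 alternatives, with log2 fold changes from -1.07 to -0.90 and an unadjusted p from 4.05e-05 to 0.00164. *Srsf9* was higher in all of them, from 0.29 to 0.54 with an unadjusted p from 0.0144 to 0.118, and lost its call under quantile normalization (0.38, unadjusted p = 0.0668) and in the 4 fits given with its values. The count of members past the limit was then 1 under quantile normalization and ran from 1 to 3 when a library was left out. *Srsf5* turned to -0.062 without cKO 1 and ran up to 0.098 over the fits that left out a library. *Srsf6* turned to 0.0022 under median-ratio scaling, to 0.0020 without Ctrl 2 and to 0.049 without cKO 2, and ran down to -0.042. *Srsf10* and *Srsf11* passed the limit only without cKO 2. The causes were not tested. When a library was left out, the SR-related list had 0 to 1 calls, the kinases and importer 0 to 1, the decay factors 0 to 2 and the hnRNP list 0 to 3, and the highest counts all came without cKO 2. The hnRNP list had 0 without Ctrl 2, cKO 1 or cKO 3.

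Same-numbered libraries correlated at -0.39, -0.03 and 0.12 in their deviations from the group means, so the numbers were not taken as pairs. With the replicate block, *Srsf1* had an unadjusted p = 0.00164 and *Srsf9* an unadjusted p = 0.0322 in limma, and the hnRNP list had 0 calls. The block gave 434 higher and 247 lower genes in all, against 460 and 301 without it. Without Ctrl 1 the balance turned to 246 higher and 386 lower, and without Ctrl 3 to 551 higher and 625 lower. The summed level and the *Srsf1* share kept their direction in all 8 alternatives each. With 3 libraries a group, the 95% interval of each of the 8 paralogs not called covered changes in either direction. Each member had 393 or more reads in every library, and the parts of counting error and of spread between libraries were not separated.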

Other observations

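*Smg1*, the kinase that phosphorylates UPF1 in nonsense-mediated decay, had the largest log2 fold change of the 10 decay factors, 0.56 (SE 0.29, unadjusted p = 0.0954, not past the limit). It was at 9.28, 12.3 and 13.2 FPKM in Ctrl and at 25.3, 11.1 and 18.6 in cKO, with cKO 1 and cKO 3 above and cKO 2 within the Ctrl libraries. In cKO 1 and cKO 3, *Srsf6*, *Srsf7*, *Srsf10* and *Srsf11* were each above all Ctrl libraries too. So were the summed level of the 9 paralogs, at 741 and 777 FPKM, and that of the germ cell markers, at 466 and 543 FPKM. The pattern was thus not particular to *Smg1* and any 1 member, and a link between them was not tested.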
